A study of Mus musculus with 12 samples.

Results

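The serpin family was followed across the segments of the mouse reproductive tract and across mutants of the Hox9 to Hox11 genes. Members were all genes whose symbol is Serpin followed by a clade letter from a to i and a number, which took 68 genes (67 symbols, since Serpinb6a has 2 entries) of 31618 in the female and 68 of 31669 in the male libraries. The study sequenced RNA of 12 libraries, 6 per sex, each from tissue of 3 pooled animals aged 3 to 7 months on the strain background CD1/129, with females taken in diestrus. The female libraries were 5 uteri, 1 per genotype, and the oviduct of WT females. The male libraries were the vas deferens of these 5 genotypes and, from WT males, the caudal epididymis. The mutants were Hoxa9,10,11-/- (Hoxa-null), Hoxd9,10,11-/- (Hoxd-null), Hoxa9,10,11-/-d9,10,11+/- (compound Hoxa-null, which also carries 1 mutant Hoxd copy) and Hoxa9,10,11+/-d9,10,11-/- (compound Hoxd-null, which also carries 1 mutant Hoxa copy). Each tissue and genotype had 1 library, so differences have no replicate check and are given without error or p-value. Series of values are given in genotype order, which is WT, Hoxa-null, compound Hoxa-null, Hoxd-null and compound Hoxd-null.

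Serpins are proteins with an exposed reactive loop that most members offer to a protease as bait. The protease cuts the loop, stays attached and is trapped as the serpin refolds. A few members have lost this activity and carry hormones or assist protein folding. In the reproductive tract serpins are known from seminal fluid, from the linings of the ducts and from leukocytes that pass through them. Clade A holds the secreted antitrypsins (Serpina1 genes) and antichymotrypsins (Serpina3 genes), and clade B the mostly intracellular inhibitors. The small clades hold antithrombin (Serpinc1), protease nexin 1 (Serpine2), pigment epithelium-derived factor (Serpinf1), antiplasmin (Serpinf2), the C1 inhibitor (Serping1), the collagen chaperone Hsp47 (Serpinh1) and neuroserpin (Serpini1).

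Values are log2 and relative to the gene's median over the 6 libraries of 1 sex, so they show differences between libraries of the same sex and not the level of a gene. Where few reads allowed it, the level before this centring was recovered in normalised reads, with a floor of 1 normalised read under which no value can lie. A gene was called measured if it came to 20 normalised reads in its highest library or if its level could not be recovered, which held for 16962 female and 17111 male genes. Of the members, 40 were measured in the female set, 13 were below the minimum and 15 were constant over the libraries. In the male set 41 were measured, 7 were below the minimum and 20 were constant. The measured members were 17 of clade A, 15 of clade B and 8 of the other clades in the female set, and 18, 15 and 8 in the male set, and 36 genes were measured in both. A level was read for 6 of the 40 female and 10 of the 41 male measured members, of which 1 and 5 rest on whole reads in 5 of 6 libraries and are not given as levels. The other 34 and 31 were kept without a known level. Serpind1 (heparin cofactor II) and Serpine3 were below the minimum in both sets.

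Most of the family sits in 3 clusters. The files place 27 clade A genes within 790.033 kb on chromosome 12, 12 clade B genes on chromosome 1 and 17 on chromosome 13, with gene starts on mm9. Many of these genes are near-copies of each other. How reads that match several copies were assigned is not given in the sources used here, so values of close relatives within the Serpina1, Serpina3, Serpinb1, Serpinb6 and Serpinb9 groups are uncertain.

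Serpin members varied more between libraries than most genes did. Over the 6 female libraries the range of a measured member, highest minus lowest, had a median of 2.48 on the log2 scale, against 1.05 for all measured genes. In the male set the medians were 2.13 and 1.02. Most measured members had no known level, and many are near-copies. The part of low levels or shared reads in the wider ranges was not tested. Only 6 of 40 female members stayed within 2-fold over all 6 libraries, against 47.8% of all measured genes, and in the male set 8 of 41 did, against 49.1%. The female ones were Serpinb1a, 1 of the 2 Serpinb6a entries, Serpinb6c, Serpinb8, Serpinb9 (an inhibitor of granzyme B) and Serpinc1. The male ones were Serpina1f, both Serpinb6a entries, Serpinb6c, Serpinb8, Serpinf1, Serping1 and Serpinh1.

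**Figure D1:**
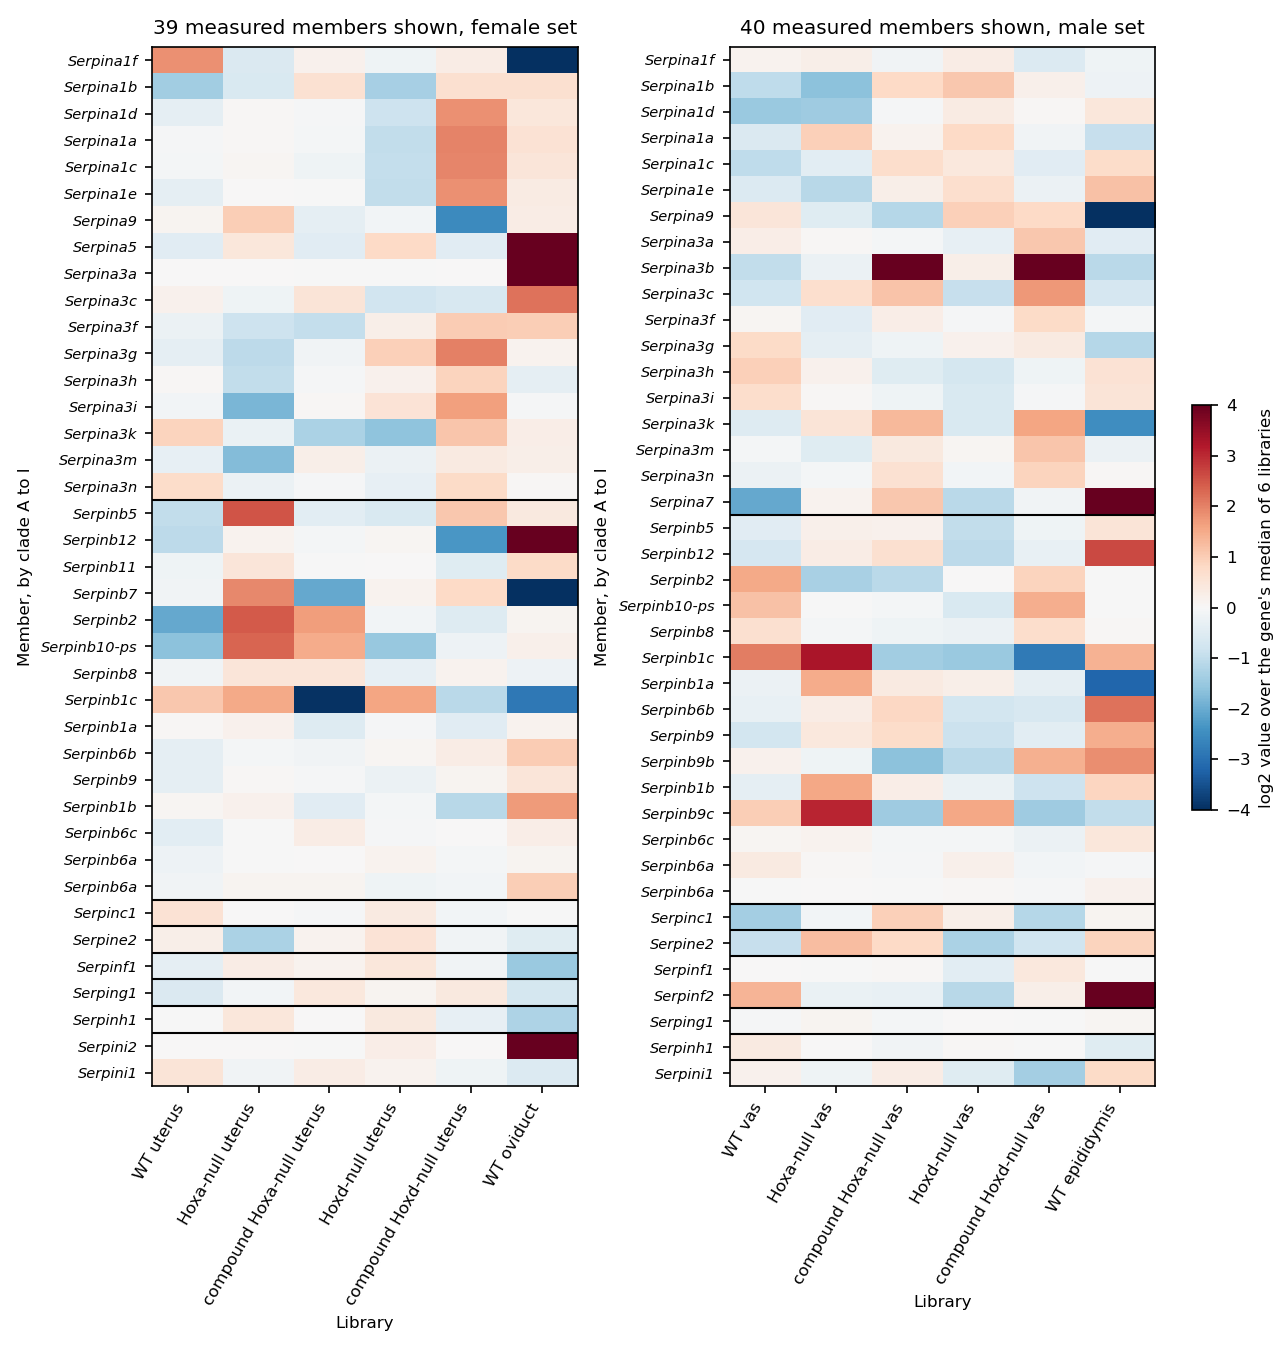
log2 value of the measured members but 1 that is not reported (rows, by clade A to I and position) in each library (columns), relative to the gene's median of the 6 libraries of the set, with colours ending at -4 and 4. Among the darkest cells are those of Serpina5 and Serpina1f in the oviduct, Serpinf2 in the epididymis and Serpina3b in both compound vasa deferentia, while the Serpinb6a and Serpinb6c rows are pale.

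Of the targeted genes Hoxa11 was more than 2 log2 units below WT in both uteri and both vasa deferentia that are Hoxa-null. Hoxd11 was below WT by less in the Hoxd-null uteri (-0.60 and -1.58) and stood at -0.73 and -1.35 in the uteri of the Hoxa-null pair, so it does not tell these genotypes apart. The kind of allele is not stated in the labels, and a mutant transcript could still be counted. Relative depth spanned 1.34-fold over the female and 1.92-fold over the male libraries. The oviduct was sequenced in another run than the uteri, so run and segment cannot be told apart there. The epididymis shared its run with the compound Hoxd-null vas deferens only. Of the tissue markers, 5 of 7 oviduct epithelium genes were at least 2-fold above all uteri in the oviduct library, while of 10 epididymis genes 3 were above and 2 below all vasa deferentia in the epididymis library. Also, 6 of 8 measured genes of the ovary were above all uteri in the oviduct, with a median difference of 4.58, and 7 of 7 spermatid genes were above all vasa deferentia in the epididymis, with a median of 5.42. In bulk tissue, more cells of a type and more RNA per cell cannot be told apart.

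In the oviduct, the segment above the uterus, 6 of 40 measured members were at least 2-fold above all 5 uteri, where 9.83% of all measured genes were. Another 3 members were at least 2-fold below them, where 4.4% of all genes were. The median difference of the members, oviduct minus the mean of the uteri, was 0.26, against 0.00 for all genes. Higher members came from clades A, B and I, and lower ones from A, B and F.

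Among the higher members, Serpina5, Serpini2 and Serpina3a had few or no reads in the uterus. Serpina5, the protein C inhibitor, stood at 383 normalised reads in the oviduct, at 1.89 in the Hoxa-null uterus, at 2.4 in the Hoxd-null one and at the floor in the other 3 uteri. The oviduct was at least 116-fold above the WT uterus, taking 3 reads as the limit that a count of 0 allows. This limit, like the intervals given for other members, covers counting error only. Serpini2, an inhibitor known from the pancreas, stood at 142 normalised reads in the oviduct, at 1.2 in the Hoxd-null uterus and at the floor in the other 4. Against the WT uterus it was at least 43.3-fold higher. Serpina3a, an antichymotrypsin relative, was at 37.9 normalised reads in the oviduct and at the floor in all 5 uteri, at least 11.5-fold above WT. Serpina5, Serpini2 and Serpina3a passed the minimum through the oviduct library alone. They could thus only be counted as higher in the oviduct.

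Serpinb12, an inhibitor of trypsin-like proteases of lining epithelia (Gene ID 71869, chromosome 1, start 108831026), was far lower in the uterus than in the oviduct. Its log2 values were -1.06, 0.15, -0.07, 0.07 and -2.32 in the uteri in genotype order, and 4.84 in the oviduct. The oviduct lay 4.69 log2 units above the Hoxa-null uterus, the nearest, and the compound Hoxd-null uterus was the lowest. Serpinb1b, of the leukocyte elastase inhibitor group, stood at 0.07, 0.16, -0.47, -0.07 and -1.11 in the uteri in genotype order and at 1.72 in the oviduct. Serpina3c stood at 0.19, -0.19, 0.53, -0.77 and -0.63 in the uteri and at 2.17 in the oviduct. Both showed a clear but smaller step between the segments than Serpinb12.

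The widest difference in the other direction was that of Serpina1f, a member of the antitrypsin cluster known from the epididymis. Its log2 values were 1.82, -0.57, 0.18, -0.19 and 0.31 in the uteri in genotype order, and -8.10 in the oviduct. WT was the highest uterus, and the 4 mutants differed from it by -2.38 to -1.51. Serpinb7 (megsin) stood at 48.2, 201, 13, 58.7 and 91.5 normalised reads in the uteri in the same order and at the floor in the oviduct. The oviduct was at least 4.87-fold below the lowest uterus, the compound Hoxa-null, and at least 75.3-fold below the highest, the Hoxa-null.

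Serpinf1, which encodes a secreted anti-angiogenic factor, was lower in the oviduct at -1.49, with the uteri at -0.36, 0.28, 0.14, 0.45 and -0.14 in genotype order. Serpinh1, the chaperone of collagen, pointed the same way at -1.24 in the oviduct against -0.03, 0.46, 0.03, 0.39 and -0.33 in the uteri, but its gap of less than 1 log2 unit kept it out of the count. Serping1 was at -0.72 in the oviduct and at -0.57 in the WT uterus, which is close to it, with the mutant uteri at -0.12, 0.42, 0.11 and 0.38. Among the other listed markers, the 8 stroma genes had a median log2 value of -1.30 in the oviduct and the 6 smooth muscle genes one of -1.27. Their part in the lower values of Serpinf1 and Serpinh1 was not tested. Adipocyte genes, of which 5 of 9 were above all uteri in the oviduct, and the ovary genes moved with the higher members, and their part was not tested either.

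In the caudal epididymis, the segment before the vas deferens, 4 of 41 measured members were at least 2-fold above all 5 vasa deferentia, where 5.74% of all measured genes were, and 3 were below all of them, where 3.65% of genes were. The median difference of the members was -0.02, against 0.01 for all genes.

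Serpinf2, the inhibitor of plasmin (Gene ID 18816, chromosome 11, start 75245238), showed the widest difference. It stood at 5.63, 1.84, 1.77, 1 and 2.59 normalised reads in the vasa deferentia in genotype order, where 1 is the floor, and at 130 in the epididymis. It thus passed the minimum through the epididymis library alone. Against the WT vas deferens the fold was 23.2, with an exact 95% interval of 11.3 to 55.4. Within the sequencing run that the epididymis shared with the compound Hoxd-null vas deferens, the log2 difference was 5.65.

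Serpina7, the thyroxine-binding globulin and the only member on chromosome X, stood at 4.50 in the epididymis. Its vas deferens values were -2.04, 0.15, 1.09, -1.08 and -0.15 in genotype order. WT was the lowest of the 5, and the 2 Hoxa-null libraries were the highest, though the gap between them and the compound Hoxd-null one was small. In the female set Serpina7 was constant.

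Serpinb12 was higher in this proximal segment too. Its log2 values were -0.67, 0.30, 0.64, -1.03 and -0.30 in the vasa deferentia in genotype order and 2.65 in the epididymis. Serpinb6b, of a group of granzyme and cathepsin inhibitors, was at 2.16 in the epididymis and at -0.30, 0.30, 0.82, -0.75 and -0.65 in the vasa deferentia. Of these genes Serpinb12 was the 1 that passed 2-fold in both proximal segments, by a log2 gap of 4.69 for the oviduct and 2.02 for the epididymis.

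Lower in the epididymis were Serpina9, Serpinb1a and Serpina3k. Serpina9, known from germinal centre B cells (Gene ID 71907, chromosome 12, start 105234830), had log2 values of 0.49, -0.49, -1.13, 0.96 and 0.80 in the vasa deferentia in genotype order, and of -4.52 in the epididymis. The log2 gap from the compound Hoxa-null vas deferens, the nearest, to the epididymis was -3.39. No level is given for Serpina9, so the counting error of its values is not known. Of 6 measured genes of B and plasma cells, 5, 5, 4 and 4 were at least 2-fold below WT in the mutant vasa deferentia in genotype order, with medians of -3.13, -3.39, -1.16 and -1.62. Serpina9 stood at -0.97, -1.61, 0.47 and 0.31 against WT in the same order, so it was below WT with the list in the Hoxa-null pair and above WT in the Hoxd-null pair, where the list was below. In the epididymis none of the 6 was below all vasa deferentia. The part of this list in the Serpina9 values was not tested. Serpinb1a, the leukocyte elastase inhibitor, was at -3.18 in the epididymis and at -0.24, 1.48, 0.37, 0.25 and -0.35 in the vasa deferentia in genotype order. Serpina3k, an inhibitor of tissue kallikrein, was at -2.47 in the epididymis and at -0.51, 0.51, 1.30, -0.60 and 1.59 in the vasa deferentia. Within the shared run the epididymis minus the compound Hoxd-null vas deferens came to -5.32 for Serpina9, -2.82 for Serpinb1a and -4.06 for Serpina3k on the log2 scale.

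**Figure D2:**
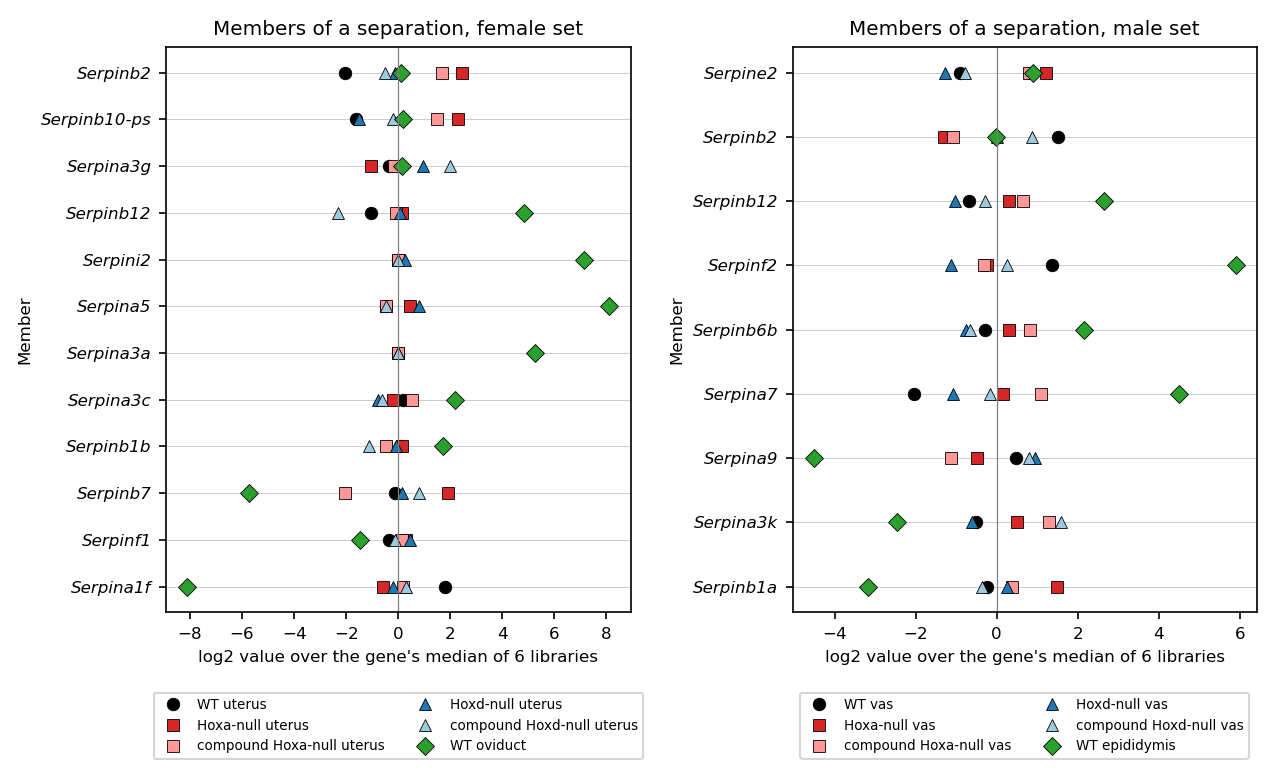
log2 value in each library (points, coloured by genotype or segment) of the members at least 2-fold apart between a pair of mutants and the other 3 libraries of the tissue, or between the proximal segment and all 5 distal libraries. The oviduct diamond of Serpina5 lies at 8.12 and that of Serpina1f at -8.10, while on the Serpinb2 line the squares of the Hoxa-null pair are the highest points in the female and the lowest in the male set.

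For the mutations, both libraries with 2 mutant copies of a gene block were set against the 3 with at most 1. In the uterus, 2 of 40 members were at least 2-fold higher in both Hoxa-null libraries than in the other 3, where 0.979% of genes were, and none was lower, where 1.12% were. For the Hoxd-null pair 1 member was higher, where 0.931% of genes were, and none was lower, where 0.371% were. In the vas deferens 1 of 41 members was higher in the Hoxa-null pair, where 4.03% of genes were, and 1 was lower, where 2.3% were. For the Hoxd-null pair in the vas deferens no member was higher or lower, where 0.134% and 0.631% of genes were. These counts are of 0 to 2 members, and in the vas deferens their share, at most 2.44%, was close to or below that over all genes.

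Serpinb2, the plasminogen activator inhibitor of type 2 (Gene ID 18788, chromosome 1, start 109408000), was the 1 member that separated the Hoxa-null pair in both tissues, and it did so in opposite directions. The uteri stood at 2.19, 50.1, 29, 8.38 and 6.4 normalised reads in genotype order, and the oviduct at 9.81. The vasa deferentia stood at 58.5, 8.29, 9.73, 20.5 and 37.5 in the same order, and the epididymis at 20.3.

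WT was thus the lowest uterus and the highest vas deferens, with the Hoxd-null libraries between WT and the Hoxa-null ones in both tissues. The nearest libraries of the 2 sides differed by 3.46-fold in the uterus, with an exact interval of 1.49 to 9.37 from counting error. In the vas deferens they differed by 2.11-fold, with an interval of 0.973 to 4.85, so counting error alone covers that smallest step. The Hoxa-null uterus stood 22.9-fold above WT (interval 6.02 to 194), and WT vas deferens stood 7.05-fold above the Hoxa-null one (interval 3.54 to 16.0).

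Serpinb10-ps, a pseudogene next to Serpinb2 (start 109425580), had a like order in the uterus. Its log2 values were -1.63, 2.31, 1.49, -1.52 and -0.19 in the uteri in genotype order, and 0.19 in the oviduct. In the vas deferens the Hoxa-null pair (0.00 and -0.08) lay inside the range of the others, which ran from -0.60 to 1.44. Of the 7 measured clade B members on chromosome 1, 5 were at least 2-fold above WT in the Hoxa-null uterus, where 6.1% of all measured genes were. These were Serpinb5 (maspin) at 3.51, Serpinb12 at 1.2, Serpinb7 at 2.06, Serpinb2 and Serpinb10-ps. In the compound Hoxa-null uterus Serpinb2 and Serpinb10-ps were above WT, at 3.73 and 3.12, while Serpinb5 was within 2-fold and Serpinb7 was at -1.89.

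Markers of stratified squamous epithelium, a cell layer in which several of these clade B genes are known, moved with some of this group. All 12 measured ones of 14 listed were at least 2-fold above WT in each of the Hoxa-null pair, with medians of 6.12 and 3.83, and 8 of 12 separated the pair. Dsc3 stood 8.14, Krt6a 7.99 and Krt5 7.31 above WT in the Hoxa-null uterus. The compound Hoxd-null uterus had all 12 above WT as well, with a median of 2.29, and there Serpinb5 stood 2.07, Serpinb2 1.55, Serpinb10-ps 1.44 and Serpinb7 0.92 above WT, while Serpinb12 was at -1.26. In the compound Hoxa-null uterus, Serpinb7 was below WT although all 12 markers were above it. In the Hoxd-null uterus 3 of 12 were above and 2 below WT, with a median of 0.52, while Serpinb2 stood 1.93 above it. Cytotoxic lymphocyte genes moved the other way, with 7 of 10 below the other 3 uteri in the Hoxa-null pair. Of the vas deferens lists, 5 of 6 B and plasma cell genes and 3 of 7 spermatid genes were lower in the Hoxa-null pair, as Serpinb2 was. Their part in the Serpinb values was not tested. Within the first sequencing lane the Hoxa-null uterus stood 4.51 above WT for Serpinb2, and within the second the compound Hoxa-null uterus stood at least 1.79 above both Hoxd-null ones. For the vas deferens the gap within the second lane, Hoxa-null pair minus Hoxd-null, was -1.09.

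The bases before the Serpinb2 and Serpinb12 starts are shown because, of the chromosome 1 cluster, Serpinb2 separated the Hoxa-null pair in both tissues and Serpinb12 separated both proximal segments. They come from RefSeq on GRCm38.p6, whereas the values were made on mm9, and run 5′ to 3′ on the gene's strand over the 250 bases before the first listed start. The Serpinb2 window is chr1:107511173-107511422 and the Serpinb12 window chr1:106934199-106934448, both on the plus strand. Capitals mark every match, on either strand, to the letters TATAAA, to the letters CATAAA and to the letters TGANTCA.
Serpinb2: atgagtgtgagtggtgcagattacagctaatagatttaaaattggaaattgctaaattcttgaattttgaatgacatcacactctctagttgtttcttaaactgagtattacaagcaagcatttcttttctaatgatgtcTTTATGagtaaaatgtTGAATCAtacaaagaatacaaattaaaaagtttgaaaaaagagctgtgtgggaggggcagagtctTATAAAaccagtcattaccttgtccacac
Serpinb12: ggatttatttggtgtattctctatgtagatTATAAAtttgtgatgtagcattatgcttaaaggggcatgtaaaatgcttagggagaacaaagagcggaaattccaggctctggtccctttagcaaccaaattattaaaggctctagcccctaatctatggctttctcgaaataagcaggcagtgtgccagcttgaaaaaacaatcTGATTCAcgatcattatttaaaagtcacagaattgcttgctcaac
TATAAA is the letters of a TATA box, CATAAA occurs in sites of posterior Hox proteins, and TGANTCA is a loose form of the AP-1 site. The AP-1 site has C or G in the middle, whereas the Serpinb2 match is TGAATCA and the Serpinb12 match TGATTCA. Serpinb2 held TATAAA at -29 to -24, CATAAA on the other strand at -110 to -105 and TGANTCA at -94 to -88 from the start. Serpinb12 held TATAAA at -220 to -215 and TGANTCA at -45 to -39. Promoters were found for 54 of 67 member symbols. For each member symbol the first listed promoter was counted, whereas the share over all genes counted every distinct promoter sequence. TATAAA stood in 13 of the 54 (24.1%) against 12.3% of all 32544 promoters of this length, CATAAA in 10 (18.5%) against 10.8%, and TGANTCA in 11 (20.4%) against 6.73%. AGAACA, a steroid receptor half-site, stood in 20 (37.0%) against 16.0%, and TTCNNNGAA, a STAT site, in 7 (13%) against 7.04%. These are matches of letters only. Near-copies among the members share sequence, so their promoters are not independent.

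Serpina3g, an intracellular relative of the antichymotrypsins known from activated leukocytes (Gene ID 20715, chromosome 12, start 105455079), was the 1 member higher in both Hoxd-null uteri. Its log2 values were -0.34, -1.05, -0.15, 0.95 and 2.0 in the uteri in genotype order, and 0.15 in the oviduct. The nearest libraries of the 2 sides were 1.11 apart, and within the second sequencing lane the gap to the compound Hoxa-null uterus was the same. Its neighbours Serpina3f, Serpina3h and Serpina3i also had their highest value in the compound Hoxd-null uterus, at 1.01, 0.88 and 1.63. Beside them, 6 of 10 measured neutrophil genes and 3 of 10 macrophage genes separated the Hoxd-null pair upward. Retnlg stood 7.06 and 6.46, S100a9 4.86 and 4.39 and S100a8 4.48 and 3.69 above WT in these libraries. Their part in the Serpina3g values was not tested.

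Serpine2, protease nexin 1, which inhibits thrombin and the plasminogen activators and is known as a product of the seminal vesicle (Gene ID 20720, chromosome 1, start 79790772), was the 1 member higher in both Hoxa-null vasa deferentia. In log2 values it stood at -0.91, 1.22, 0.79, -1.27 and -0.79 in the vasa deferentia in genotype order, and 0.90 in the epididymis. Both Hoxa-null libraries thus stood level with the WT epididymis and at least 1.58 above the other vasa deferentia. Within the second sequencing lane the gap to the Hoxd-null library was 2.06. The uterus showed another picture, with Serpine2 at -1.48 against WT in the Hoxa-null library and at -0.10 in the compound one. Of 7 measured seminal vesicle and prostate genes, 3 separated the Hoxa-null vasa deferentia upward, with a median over the list of 3.22. The 3 were Svs4, Svs5 and Svs6, secreted proteins of the seminal vesicle, and Svs4 stood 3.56 and 3.10 above WT. Pbsn and Tgm4 of the same list were far below WT in all 4 mutants, by -9.01 to -5.84 and -8.77 to -6.67. Of 10 epididymis epithelium genes, 5 and 4 were at least 2-fold above WT in the vasa deferentia of the Hoxa-null pair in genotype order, and 1 and 2 were below. Of these 10, 3 separated the pair upward and 1 downward, with a median over the list of 0.03. Pate4, the gene of this list with the widest step up, stood 3.02 and 3.06 above WT in the pair but at -4.20 against the WT vas deferens in the epididymis itself. The part of both lists in the Serpine2 values was not tested.

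Each mutant was also set against the WT library of its tissue. Among uteri, the Hoxa-null one had 5 members at least 2-fold higher than WT and 6 lower, where 6.1% and 7.5% of all measured genes were. In the Hoxd-null uterus 4 were higher and 3 lower, where 6.37% and 5.99% were. In the compound Hoxa-null uterus 3 were higher and 4 lower, where 8.71% and 7.05% were. The compound Hoxd-null uterus had 12 higher and 5 lower, where 8.12% and 6.5% were. Of its 12 higher members 8 were of clade A, all Serpina1 or Serpina3 genes, whose near-copies may share reads.

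Among vasa deferentia, the Hoxa-null one had 12 members higher and 4 lower, where 10.9% and 8.7% of genes were. In the Hoxd-null 7 were higher and 7 lower, where 3.49% and 5.03% were. The compound Hoxa-null had 13 higher and 8 lower, where 14% and 8.58% were, and the compound Hoxd-null 10 higher and 5 lower, where 7.76% and 5.52% were. No mutant vas deferens shared a sequencing lane with the WT one, and the compound Hoxd-null one was in another run. Of the mutant uteri only the Hoxa-null one shared the lane of the WT uterus. In the other comparisons with WT, lane and genotype cannot be told apart. The 4 mutants of a tissue share the WT library, so these counts are not independent of each other. Near-copies within a count may share reads and are not independent members either.

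**Figure D3:**
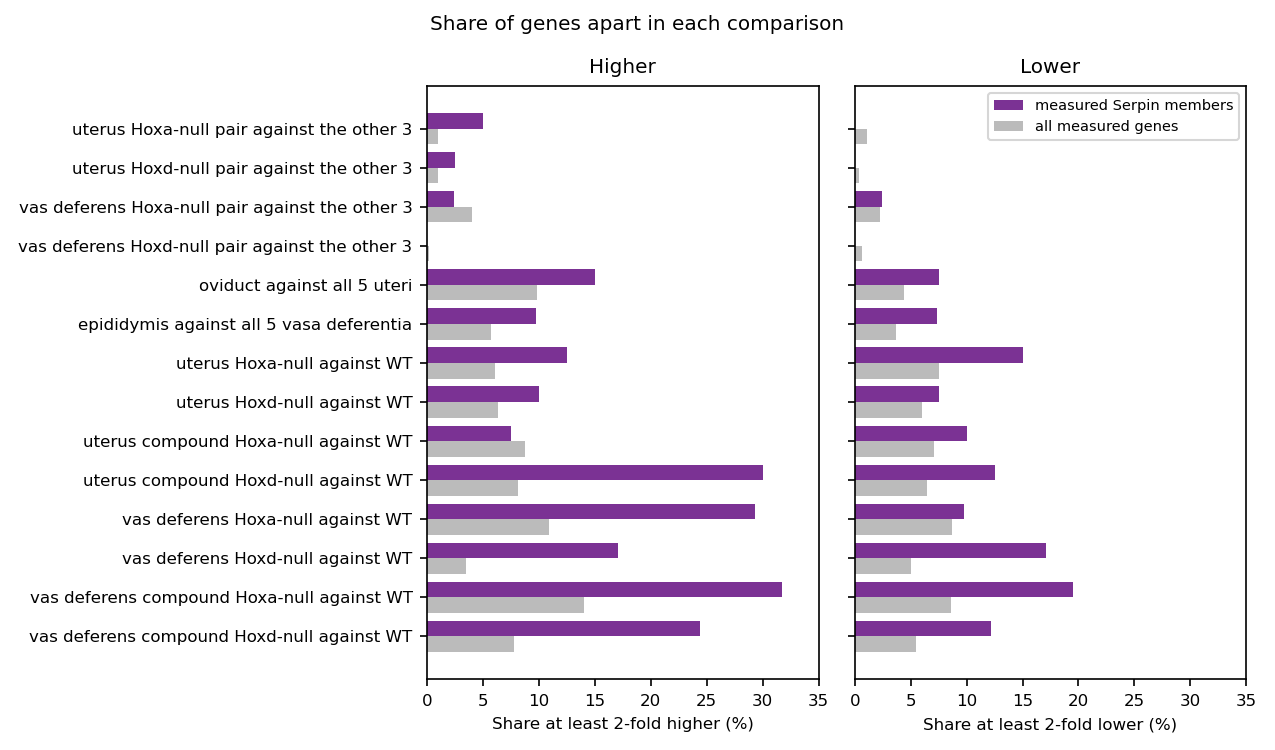
Share of the measured serpin members and of all measured genes that were at least 2-fold higher (left) or lower (right) in each comparison, as percentages. Near-copies count as separate members. The members' bar is the longer one on both sides in the oviduct, the epididymis and each mutant against WT (30% against 8.12% for higher genes in the compound Hoxd-null uterus), apart from the higher side of the compound Hoxa-null uterus. For the mutant pairs it is the longer one on the higher side in the uterus and on the lower side of the Hoxa-null vas deferens pair, and the shorter one elsewhere.

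The 12 higher members of the compound Hoxd-null uterus included all 5 antitrypsin genes. Serpina1a, Serpina1c, Serpina1d and Serpina1e stood between 2.03 and 2.18 above WT there. The same 4 genes lay from 0.08 to 0.40 against WT in the Hoxa-null uterus, from -0.08 to 0.36 in the compound one and from -0.93 to -0.47 in the Hoxd-null one. In every female library these 4 genes lay within 0.33 of each other. Serpina1b differed from them, standing 2.0 above WT in the compound Hoxa-null uterus and 2.04 above it in the compound Hoxd-null uterus.

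Of the vasa deferentia, it was the Hoxd-null one in which all 5 antitrypsin genes stood at least 2-fold above WT, by 1.21 to 2.12. They stood 0.71 to 1.81 above WT in the compound Hoxa-null vas deferens and 0.30 to 1.53 above it in the compound Hoxd-null one. For the Hoxa-null vas deferens they were spread from -0.61 to 1.53. Of the hepatocyte markers only 2 of 6 were measured in the female and 3 of 6 in the male set. In the compound Hoxd-null uterus both stood below WT, Ttr at -7.16 and Apoa1 at -1.13. Ttr is also on the list of uterine gland genes. Other cell types differed there too. At least 2-fold above WT were 9 of 10 macrophage, 7 of 10 neutrophil, 5 of 5 B and plasma cell and 5 of 7 mast cell genes, with medians of 1.41, 2.27, 1.46 and 1.70. At least 2-fold below WT were 8 of 9 adipocyte and 7 of 8 uterine gland genes, with medians of -3.30 and -5.68. In the Hoxd-null vas deferens 1 of the 3 hepatocyte markers was above and 1 below WT, while 5 of 7 seminal vesicle and prostate genes, 5 of 7 spermatid genes and 4 of 6 B and plasma cell genes were below it. The part of these lists in the antitrypsin values was not tested.

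The widest genotype difference of the family was that of Serpina3b, an antichymotrypsin relative (Gene ID 271047, chromosome 12, start 105366206). The log2 values of Serpina3b were -0.97, -0.23, 5.02, 0.23 and 5.79 in the vasa deferentia in genotype order, and -1.09 in the epididymis. Against WT the compound Hoxa-null vas deferens was 63.7-fold and the compound Hoxd-null one 109-fold higher, whereas the Hoxd-null one was 2.30-fold higher and the Hoxa-null one within 2-fold. No level is given for Serpina3b, so the counting error of these folds is not known. The compound libraries came from different sequencing runs. In the female set Serpina3b was below the minimum.

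Its neighbours differed in the same libraries by less. Serpina3c stood at 1.45, 1.92, -0.15 and 2.53 against WT in the mutants in genotype order. Serpina3k stood at 1.02, 1.80, -0.10 and 2.10 in the same order, so both were near WT in the Hoxd-null library. Serpina3m and Serpina3n passed 2-fold in the compound Hoxd-null library only, at 1.19 and 1.13. Serpina3h went the other way, at -0.76, -1.43, -1.65 and -1.13 against WT in genotype order. The Serpina3 genes of the cluster thus did not share 1 direction.

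**Figure D4:**
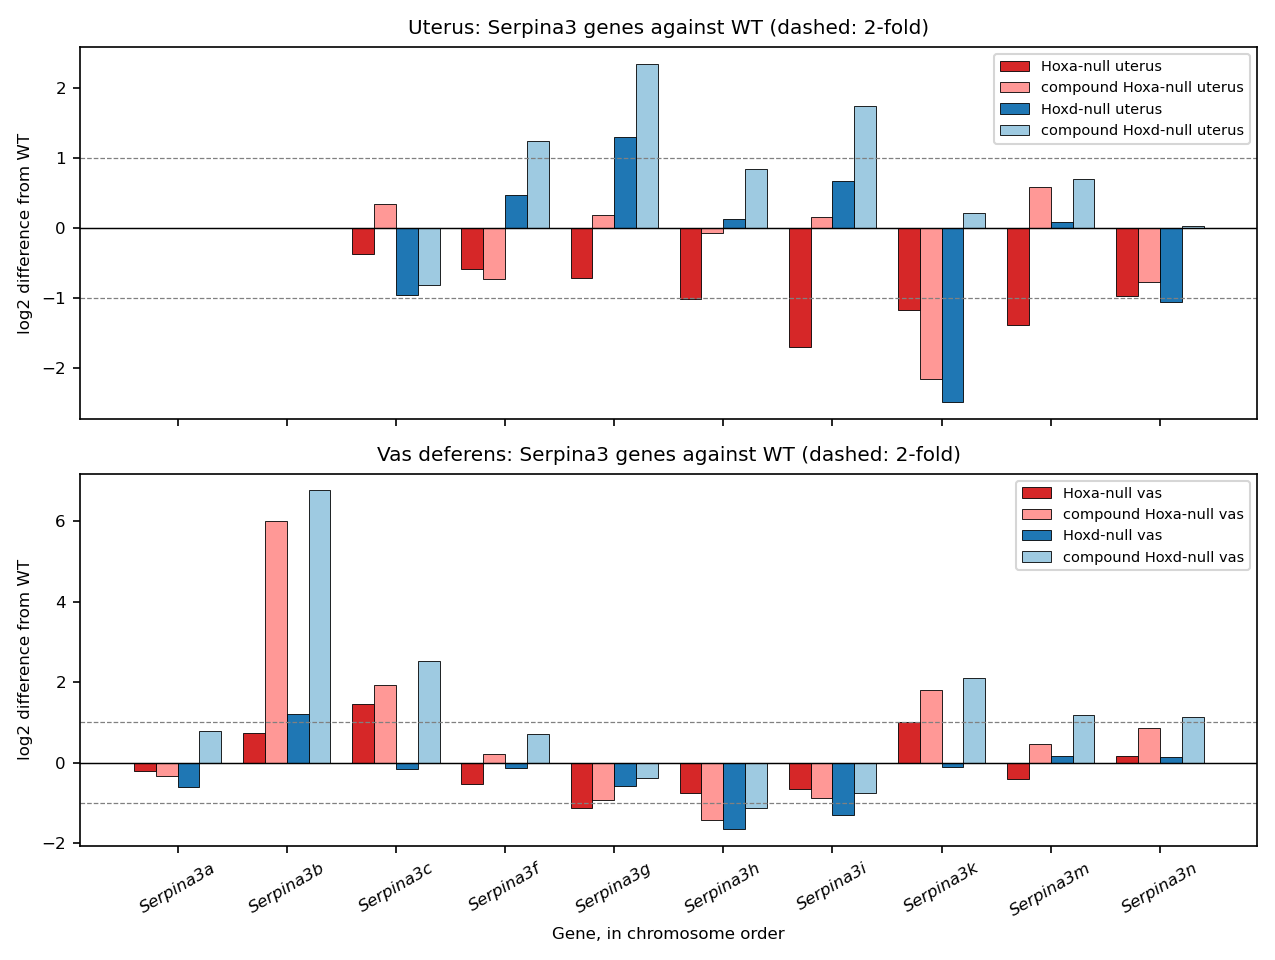
log2 difference, mutant minus WT of its tissue, for the Serpina3 genes measured in either set, in chromosome order, with 1 bar per mutant and dashed lines at 2-fold. In the vas deferens (bottom) the Serpina3b bars of both compound mutants reach 5.99 and 6.76, and in the uterus (top) the highest bars are those of the compound Hoxd-null library for Serpina3g and Serpina3i. Serpina3b was not measured in the uterus, and Serpina3a was at the floor in all 5 uteri.

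Promoters of 3 genes of this cluster are shown to compare a gene with a large difference, 1 with a moderate difference and 1 with a small difference in the compound vasa deferentia. They are the 250 bases before the RefSeq start on GRCm38.p6, with capitals as above. The windows are chr12:104127746-104127995 (plus strand) for Serpina3b, chr12:104153873-104154122 (minus strand) for Serpina3c and chr12:104406458-104406707 (plus strand) for Serpina3n.
Serpina3b: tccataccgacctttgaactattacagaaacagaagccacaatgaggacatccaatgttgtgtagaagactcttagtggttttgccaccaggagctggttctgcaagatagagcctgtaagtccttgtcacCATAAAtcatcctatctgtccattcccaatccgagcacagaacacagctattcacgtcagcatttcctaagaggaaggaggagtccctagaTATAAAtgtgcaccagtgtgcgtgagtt
Serpina3c: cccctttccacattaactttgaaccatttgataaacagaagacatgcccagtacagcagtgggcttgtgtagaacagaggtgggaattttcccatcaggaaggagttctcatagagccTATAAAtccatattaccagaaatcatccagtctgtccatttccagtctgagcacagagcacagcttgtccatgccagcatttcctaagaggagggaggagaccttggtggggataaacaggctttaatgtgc
Serpina3n: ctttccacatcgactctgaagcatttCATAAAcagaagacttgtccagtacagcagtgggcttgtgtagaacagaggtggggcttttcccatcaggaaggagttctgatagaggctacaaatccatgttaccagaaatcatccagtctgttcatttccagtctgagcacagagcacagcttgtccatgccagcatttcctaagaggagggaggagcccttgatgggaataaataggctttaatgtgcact
In a global alignment 73.2% of the 250 bases were identical between Serpina3b and Serpina3c and 73.6% between Serpina3b and Serpina3n. Serpina3c and Serpina3n were the most alike, at 91.6%, although Serpina3c stood at 2.53 and Serpina3n at 1.13 above WT in the compound Hoxd-null vas deferens. Serpina3b held TATAAA at -28 to -23 and CATAAA at -119 to -114. Serpina3c held TATAAA at -132 to -127, and Serpina3n held CATAAA at -224 to -219. Neither of these held TATAAA at -28 to -23. These are matches of letters only, and the part of these sequences in the values was not tested.

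Adipocyte markers moved with this group in the vas deferens. Of 10 listed 9 were measured, and all 9 were at least 2-fold above WT in each mutant but the Hoxd-null, in which 1 was. Their medians were 2.17, 2.64, 0.18 and 2.37 in genotype order. The adipocyte list was lowest in the epididymis, as Serpina3k was, with a median log2 value of -2.26. Serpina3c was not lowest there. Its epididymis value was 2.41 below that of the compound Hoxd-null vas deferens, which stood 2.53 above WT. Serpina3b stood 0.74 above WT in the Hoxa-null library, in which all 9 adipocyte genes were above WT. The part of the adipocyte genes in the values of Serpina3b, Serpina3c and Serpina3k was not tested.

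Serpinb1c, a near-copy of the elastase inhibitor whose start in the files (chromosome 13, 32933961) is the same as that of Serpinb1a, had the widest range of clade B in the male set. It stood at 2.05, 3.27, -1.39, -1.48 and -2.84 in the vasa deferentia in genotype order and at 1.38 in the epididymis. The uteri were at 1.08, 1.51, -3.95, 1.58 and -1.08 in the same order and the oviduct at -2.87. Serpinb1a varied less, at 0.05, 0.17, -0.50, -0.05 and -0.44 in the uteri, where the compound mutants were the lowest for both genes. In the vasa deferentia, too, both were highest in the Hoxa-null and lowest in the compound Hoxd-null library, but in the epididymis Serpinb1a was at -3.18. Because both entries cover the same start, reads could be assigned to either.

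Serpinb9c, of the granzyme inhibitor group, stood at 5.28, 21.9, 1, 7.83 and 1 normalised reads in the vasa deferentia in genotype order, where 1 is the floor, and at 1.35 in the epididymis. It only just passed the minimum.

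Serpinc1, antithrombin, was lowest in the WT and compound Hoxd-null vas deferens. It stood at 111, 262, 553, 334 and 129 normalised reads in genotype order, and at 305 in the epididymis. In the female set its log2 values were 0.57, 0.02, -0.04, 0.36 and -0.12 in the uteri and -0.03 in the oviduct, all within 2-fold of each other.

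Serpini1, neuroserpin, was at 0.17, -0.17, 0.29, -0.49 and -1.36 in the vasa deferentia in genotype order and at 0.77 in the epididymis. In the female set it lay between -0.54 in the oviduct and 0.51 in the WT uterus.

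Serping1, Serpinf1 and Serpinh1, whose products are secreted or serve collagen folding, differed little in the male set. Serping1 stood at -0.03, 0.09, -0.09, 0.02 and -0.01 in the vasa deferentia in genotype order and at 0.09 in the epididymis. Serpinh1 stood at 0.36, 0.00, -0.13, 0.05 and -0.01 and at -0.48 in the epididymis. Serpinf1 stayed between -0.43 and 0.42. The collagen clients of Serpinh1 are described with the partner lists.

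Proteases that serpins inhibit were listed apart from the family, 35 genes of which 28 female and 30 male ones were measured. Against WT, 5, 6, 7 and 10 were at least 2-fold higher and 4, 4, 2 and 1 lower in the mutant uteri in genotype order. Over all measured genes 6.1%, 8.71%, 6.37% and 8.12% were higher and 7.5%, 7.05%, 5.99% and 6.5% lower. Gzma and Gzmb, granzymes of cytotoxic lymphocytes, stood at -2.66 and -2.63 in the Hoxa-null uterus, and F10, coagulation factor X, at 4.5 in the Hoxd-null one. Of the mutant vasa deferentia 3, 2, 2 and 2 proteases were higher and 6, 7, 4 and 2 lower, where 10.9%, 14%, 3.49% and 7.76% of all genes were higher and 8.7%, 8.58%, 5.03% and 5.52% lower. Klkb1, plasma kallikrein, was above WT in them by 3.78, 4.64, 1.89 and 2.14, and Acr, the sperm protease acrosin, by 6.0 in the compound Hoxa-null one. The medians of the list in these 8 comparisons lay between -0.09 and 0.53.

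Receptors, cofactors and clients of serpins were 23 listed genes, of which 22 were measured in each set. Of these, 2, 7, 4 and 3 were higher and 0, 0, 1 and 1 lower than WT in the mutant uteri in genotype order, and 1, 1, 0 and 2 higher and 2, 1, 0 and 0 lower in the mutant vasa deferentia. The shares over all genes are those given for the proteases, so the highest of these counts, 7 of 22 in the compound Hoxa-null uterus, stood beside 8.71%. Col1a1 and Col1a2, clients of Serpinh1, stood at 1.48 and 1.46 above WT in the Hoxa-null uterus, where Serpinh1 itself stood at 0.49. Lrp2, an endocytic receptor of serpin and protease complexes, was at -3.61 in the compound Hoxd-null uterus. It stood 2.25 and 2.27 above WT in the vasa deferentia of the Hoxa-null pair, in which Vldlr, a related receptor, stood at -1.86 and -1.71.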

How the data were processed

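Total RNA was taken with the Qiagen RNeasy Mini kit and made into Illumina TruSeq libraries, per the labels' protocols. TopHat and mm9 are named per the submitters' processing notes. Counting tool, annotation and normalisation: not given in the sources used here. The authors deposited log2 values, centred per gene on the median of the 6 libraries of a sex. Their spacing gave the worth of 1 read per library, and from it levels in normalised reads for genes with a value at the floor of 1 or with at least 5 of 6 libraries at whole reads. Some genes carry fractions of reads, so levels of the Serpina1 and Serpina3 near-copies, which could be a multiple, are not given, except where libraries stand at the floor. On simulated counts 96.6% of female and 97.1% of male levels with all 6 libraries whole were right. None with 5 of 6 whole were (0%), being too low by a whole factor, so such levels are not given. They still entered the minimum, under which no member fell through one. In the compound Hoxd-null vas deferens and the epididymis a smaller worth of 1 read would bring the male depth range to 1.51-fold. It was not used because, among genes at the floor elsewhere, 371 and 319 values lay at 1 step and 139 and 156 at 2 steps, but only 10 and 21 at 1.5 steps (within 0.2%).

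A median shift per library, at most 0.00656 log2 units, was removed. Genes with 1 value in all 6 libraries were left out, and the minimum was 20 normalised reads in the highest library. A gene was counted at 2-fold or more between every library of one side and every library of the other. With 1 library per group no test was made. Intervals are exact (Clopper-Pearson) for 2 read counts. Values in every library are given for members of a separation and for the widest-ranging measured member of each clade and set, and from other lists up to 3 genes with the largest differences. Any further member was chosen after its values were seen. The members and lists were chosen with earlier results of these data known. There were 2 gene lists and 18 marker lists. Marker lists that moved with members are given beside them. Python (3.11.15) was used with pandas (2.3.3), numpy (2.4.6) and scipy (1.17.1). Values of 1 member are not reported here, though it is among the members counted.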

Additional observations from a re-analysis of the deposited data

Results flagged for a closer look

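Serpinb2 differed in direction between the tissues. Both Hoxa-null uteri lay above the other 3 uteri, with a log2 gap of 1.79, and both Hoxa-null vasa deferentia lay below the other 3, with a log2 gap of -1.09. The difference between the tissues was not tested, since each library stands alone.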

How the results depend on the processing

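No paired analysis was possible because each group has 1 library. Using the deposited values without removing the small shift left all 28 counts of members within 1.5 times of those reported. Without a minimum level 27 of 28 did, and the members higher in the compound Hoxa-null uterus became 5 (3 in the report). With a minimum of 50 normalised reads 27 of 28 did, and the members lower in the compound Hoxd-null vas deferens became 3 (5 in the report).

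Leaving out each library in turn moved 22 of 60 counts, all of them separations of a mutant pair. A separation asks less when a library is left out. For the uterus, members higher in the Hoxa-null pair ranged from 2 to 4 and lower ones from 0 to 4, the highest counts without the compound Hoxa-null uterus. Those higher in the Hoxd-null pair ranged from 1 to 8, the highest without the Hoxd-null uterus, and lower ones from 0 to 2, with 2 without the Hoxd-null or the WT uterus. For the vas deferens, members higher in the Hoxa-null pair ranged from 1 to 6, the highest without the compound Hoxd-null library, and lower ones from 1 to 2. In the Hoxd-null pair both directions ranged from 0 to 2. The lower counts of the Hoxa-null vasa deferentia were 2 without the Hoxa-null, WT or Hoxd-null library. The oviduct counts stayed at 6 higher and 3 to 4 lower, and those of the epididymis at 4 to 5 higher and 3 to 4 lower. Depth limits Serpinb2, Serpinb7, Serpinb9c, Serpinf2, Serpini2, Serpina5 and Serpina3a, whose low libraries hold few or no reads. For Serpina9 and Serpina3b in the male and Serpinb12 in the female set no level is given, so their counting error is not known.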
